A study of Mus musculus with 2 samples.

Results

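The genes described here are the core genes of DNA replication, taken by symbol from a list of 47 genes for origin licensing, the replicative helicase, polymerases and primase, the sliding clamp and its loader, single-strand binding, Okazaki fragment maturation, nucleotide supply, chromatin assembly and the activator *E2f1*. All 47 were found among the 14732 gene symbols listed in at least 1 of 2 RNA sequencing libraries. The libraries were made from control and Eomes-overexpressing OT-I cells, 1 library for each condition. OT-I cells are CD8+ T cells of transgenic mice whose T cell receptor recognizes an ovalbumin peptide, and Eomes is a T-box transcription factor of CD8+ T cells and natural killer cells.

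Both conditions share their cells and their handling. The OT-I mice had a C57BL/6 background and were 6 to 8 weeks old, and CD8+ cells came from spleen and lymph nodes. The cells received SIINFEKL peptide at 2.5 ng/mL with IL-2 at 10 U/mL for 24 h and were then transduced with the retroviral vector RVKM, which carries an IRES-hCD2 cassette. The vector held Eomes for the Eomes-overexpressing cells and was empty for the control cells. Cells with human CD2 on their surface were sorted 48 h later, plated at 40000 per well and stimulated again for 3 days with both agents at these doses, after which RNA was taken. The sort selects cells that carry the vector, so Eomes was driven by the vector on top of the cells' own gene, in cells that had been activated in both conditions. The number of mice behind each library is not given in the sources used here.

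DNA replication starts in G1, when the origin recognition complex, CDC6 and CDT1 load the MCM2-7 helicase onto origins, and the helicase is switched on in S phase by the kinase CDC7-DBF4, CDC45 and the GINS complex. DNA polymerase alpha with primase lays down primers, polymerases delta and epsilon extend them on the PCNA clamp, and FEN1 and LIG1 join the fragments of the lagging strand. Many of these genes are activated by E2F factors once RB proteins have been phosphorylated, and activated CD8+ T cells, which divide very rapidly, are known for high levels of them.

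E2F factors bind promoters at short GC-rich sites, and 5 members of the list show what such sites look like. Promoter windows from 250 bases before to 50 bases after the start of each gene were taken from RefSeq on GRCm38.p6, the assembly of mm10. Of the 47 genes, 39 had a window. *Gmnn*, *Mcm4*, *Gins1*, *Gins2*, *Gins4*, *Prim2*, *Pole* and *Rfc2* had none. The letters TTTCCCGC and TTTGGCGC, both known forms of the E2F site, were searched on both strands, and their matches overlapped no match to the other motif searched, CCAAT. The stretches below run 5′ to 3′ on the strand of the gene, and capitals mark the E2F letters or their reverse complement. They were chosen as those with an E2F match among the MCM2-7 helicase genes, *Pcna*, *E2f1*, *Cdc6* and *Rrm2*. Of them 4 belong to subunits of the MCM2-7 helicase and 1 to the licensing factor CDC6, and *Mcm3* and *Mcm6* have 2 matches each. *Mcm2*, *Pcna*, *E2f1* and *Rrm2* had a window without a match. The *Mcm6* stretch lies at chr1:128359715-128359845 on the minus strand and the *Mcm7* stretch at chr5:138172011-138172078 on the minus strand. The *Mcm5* stretch lies at chr8:75109330-75109397 on the plus strand and the *Cdc6* stretch at chr11:98907983-98908050 on the plus strand. Each of these lies before the RefSeq start of its gene. The GENCODE annotation starts *Cdc6* at 98907801 and *Mcm7*, on the minus strand, at 138172422, so their stretches lie inside the genes as annotated there. The *Mcm3* stretch lies at chr1:20820266-20820294 on the minus strand, from 19 to 47 bases after the start.
Mcm6: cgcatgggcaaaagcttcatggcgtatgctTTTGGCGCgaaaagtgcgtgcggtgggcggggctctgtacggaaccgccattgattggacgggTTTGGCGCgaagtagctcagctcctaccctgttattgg
Mcm7: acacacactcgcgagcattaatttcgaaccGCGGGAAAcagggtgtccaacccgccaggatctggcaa
Mcm5: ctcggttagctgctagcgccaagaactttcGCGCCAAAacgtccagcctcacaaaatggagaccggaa
Cdc6: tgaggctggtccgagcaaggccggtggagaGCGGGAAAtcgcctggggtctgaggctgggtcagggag
Mcm3: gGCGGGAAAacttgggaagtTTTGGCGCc

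The E2F letters were present in the windows of 11 of 39 members (28.2%), against 486 of 27025 genes with a window (1.80%) and 306 of 7938 expressed genes with a window (3.85%). The 11 members with E2F letters were *Cdc6*, *Cdt1*, *Mcm3*, *Mcm5*, *Mcm6*, *Mcm7*, *Gins3*, *Pola1*, *Pold1*, *Pole2* and *Rfc3*. The E2F share in the lists of related genes described below ran from 3.03% for mitosis to 29.2% for further fork and origin genes. Of the latter, 7 of 24 genes with a window held the letters, so a share of this size was not particular to the members. CCAAT, the letters bound by the factor NF-Y, was present in 24 of 39 members (61.5%), against 41.1% of all genes with a window and 43.5% of expressed genes, and 7 of the 11 genes with E2F letters also held it. In the related lists it ran from 28.6% for S phase checkpoint genes to 75.8% for mitosis and 87.5% for replication-coupled chromatin genes. A match is a description of these letters in this window and does not show that a factor was bound.

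The level of each gene is its RPKM, a read number scaled to transcript length and library size, so that it can be compared between genes. RPKM was computed by the authors, who named it FPKM in the deposited files. The difference between the conditions is given as a log2 ratio, Eomes-overexpressing over control, so that values above 0 are higher in Eomes-overexpressing cells. A gene was called expressed if its RPKM reached 1 in either library, and a ratio of 1.5-fold, or 0.58 on the log2 scale, was taken as the threshold. With 1 library for each condition there is no test and no p-value, and no difference given here has a replicate check. The sequencing depth is unknown, so no counting error can be given either. In such a bulk sample, fewer cells of a type and less RNA per cell cannot be told apart, so a level of a replication gene is set both by the share of cells in cycle and by its RNA in those cells.

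Control and Eomes-overexpressing cells had 14130 and 13985 listed genes at a median RPKM of 5.71 and 5.84, and over the 9925 expressed genes the log2 ratio had a median of -0.0037. *Eomes* itself was at 2.47 and 129.64, a log2 ratio of 5.71, as the labels say. All 8 CD8 T cell markers were above an RPKM of 1 in both libraries, and together summed to 1644.14 in control and to 1259.66 with Eomes. All 8 were lower in Eomes-overexpressing cells, while 5010 of the 9925 expressed genes had a log2 ratio below 0 and 5.19% were more than 1.5-fold lower. Of the 8 markers 2 passed the 1.5-fold threshold, *Cd8a* at 181.81 and 99.1, a log2 ratio of -0.88, and *Cd2* at 265.32 and 170.85, a log2 ratio of -0.64. Both also passed it after centring by GC content, where 7 of the 8 markers were below 0 and *Zap70* was at 0.03. The B cell markers *Ms4a1* and *Pax5*, the myeloid markers *Lyz2*, *Adgre1* and *Csf1r* and the natural killer markers *Ncr1* and *Klra8* were listed in neither library. The summed level was 2.87 and 1.62 for the 5 B cell markers, 116.31 and 107.4 for the 7 myeloid markers, of which *Cst3* made up 113.45 and 102.47, 14.32 and 11.84 for the 4 CD4 and regulatory T cell markers, and 0.36 and 5.74 for the 4 natural killer markers, all of it *Klrb1c* in Eomes-overexpressing cells.

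The replication genes were among the abundant transcripts of these cells, and their levels were close to each other in the 2 conditions. All 47 were expressed, from 5.99 for *Pola1* in control to 442.87 for *Pcna* in Eomes-overexpressing cells. The median gene was at 61.4 in control and at 60.0 in the Eomes-overexpressing library, against 12.8 and 13.0 for all expressed genes. In each library 44 of 47 lay above the median of expressed genes and 14 lay in the top 10%. The 47 genes summed to 3670.45 in control and to 3829.05 in the Eomes-overexpressing library, 4.32% higher, or 0.654% and 0.697% of all RPKM.

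**Figure D1:**
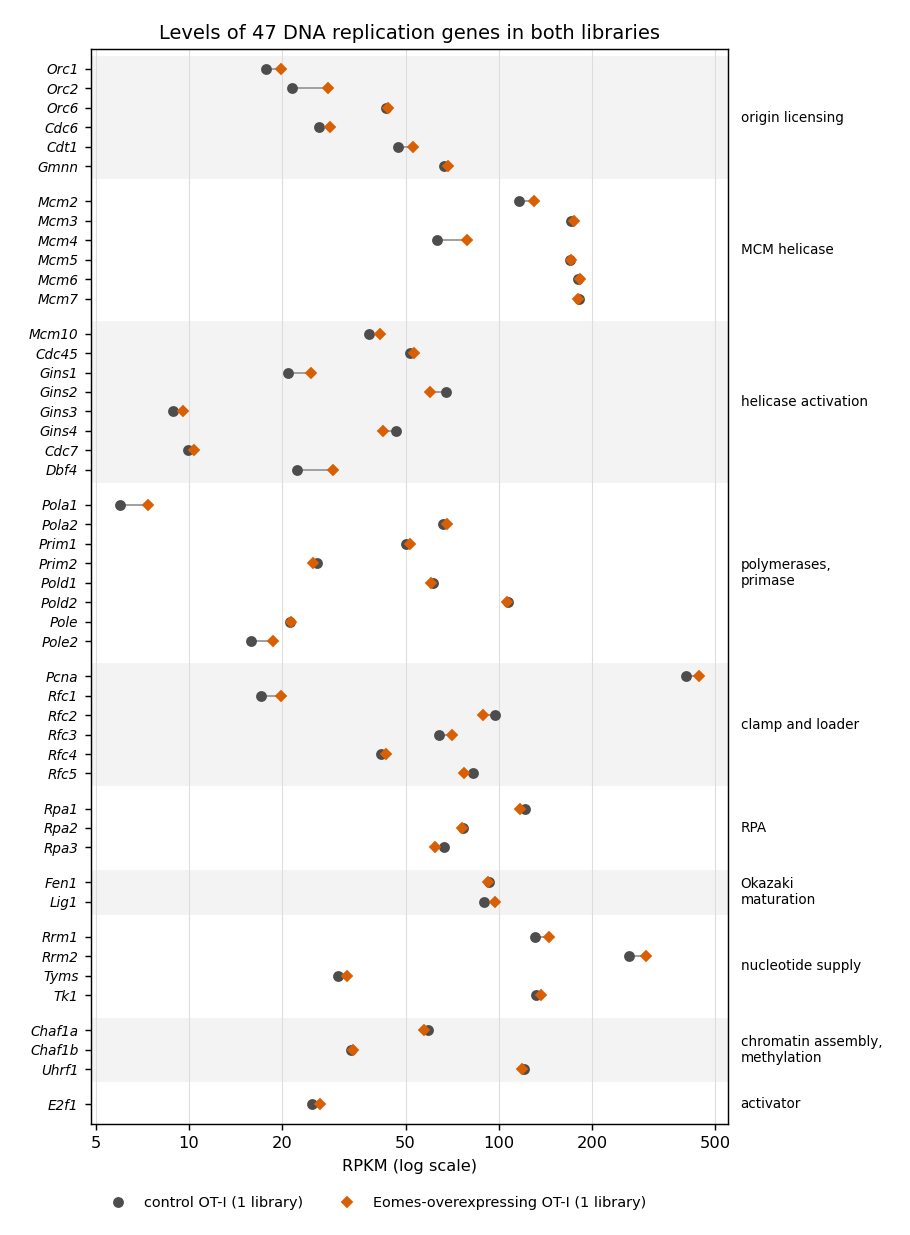
RPKM (log axis) of the 47 replication genes in the control library (grey circles) and the Eomes-overexpressing library (orange diamonds), grouped by role. The symbols of most genes touch or overlap, and the levels run from 5.99 for *Pola1* in control to 442.87 for *Pcna* in Eomes-overexpressing cells.

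No replication gene passed the 1.5-fold threshold in either direction. Among all 9925 expressed genes, 244 (2.46%) lay above and 515 (5.19%) below it. The log2 ratios of the 47 genes ran from -0.17 for *Gins2* to 0.39 for *Dbf4*, with a median of 0.05, quartiles of -0.01 and 0.15 and an SD of 0.129 over the genes. Of these, 32 genes were within 1.1-fold and 43 within 1.2-fold. Of all expressed genes 70.0% were within 1.2-fold. *Dbf4*, *Orc2*, *Mcm4* and *Pola1* were more than 1.2-fold higher in Eomes-overexpressing cells, and 0 genes were more than 1.2-fold lower.

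Small differences pointed up more often than down. The log2 ratio was above 0 for 33 of the 47 genes and below 0 for 14, while 49.2% of expressed genes were above 0. When each library was scaled to the same summed RPKM, 39 of the 47 genes and 55.3% of expressed genes were above 0. Among the 6496 genes whose mean RPKM fell in the range of the replication genes, 6.69 to 422.37, 49.6% were above 0, 3.08% passed the 1.5-fold threshold and 78.4% were within 1.2-fold. Across the 47 genes, the log2 levels of the 2 libraries had a Pearson correlation of 0.996, as a description over genes, which are not replicates.

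**Figure D2:**
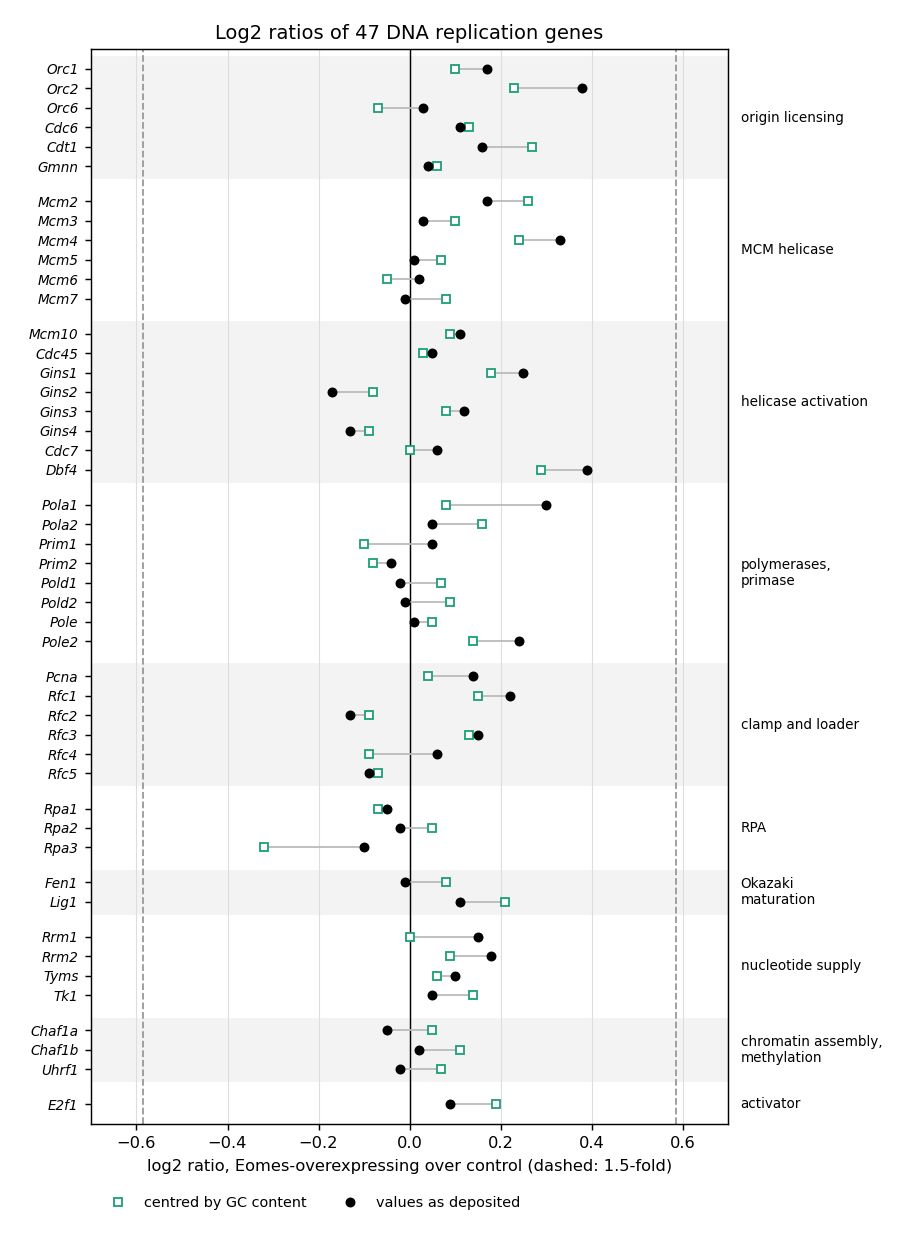
Log2 ratio, Eomes-overexpressing over control, of the 47 replication genes as deposited (black circles) and after centring on genes of like GC content (green squares), with the 1.5-fold threshold dashed. As deposited, 33 genes lie above 0 and 14 below, and all 47 lie inside the threshold.

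As deposited, the 6 genes of origin licensing were all slightly higher in Eomes-overexpressing cells, with a median log2 ratio of 0.14 over 6 genes and a sum of 222.44 in control and 241.87 with Eomes. After centring by GC content 5 of the 6 were above 0, with a median of 0.11. *Orc2*, a subunit of the origin recognition complex, was at 21.5 and 28.07, a log2 ratio of 0.38 and the second in rank of the 47. *Orc1*, an ATPase subunit of the origin recognition complex, was at 17.69 and 19.85, a log2 ratio of 0.17. *Orc6* was at 43.18 and 43.97, a log2 ratio of 0.03, which became -0.07 when ratios were centred on genes of like GC content. The 3 subunits differed in both level and ratio, with the highest of them, *Orc6*, differing least. *Cdc6*, the loader that joins the origin recognition complex, was at 26.34 and 28.47, a log2 ratio of 0.11. *Cdt1*, which brings the helicase to origins, was at 47.21 and 52.89, a log2 ratio of 0.16. Its inhibitor geminin, encoded by *Gmnn* and present outside G1, was at 66.52 and 68.62, a log2 ratio of 0.04. The loading factors *Cdc6* and *Cdt1* and the inhibitor thus had ratios of the same sign. Of the exon bases of *Orc2*, 29.8% overlap *Nif3l1* on the opposite strand, which was at 17.49 and 15.52, a log2 ratio of -0.17, and whether reads were counted by strand is not given in the sources used here.

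The MCM2-7 helicase, a ring of 6 subunits that unwinds DNA at the fork, was abundant in both conditions, with a sum of 882.11 in control and 918.63 with Eomes. Its median log2 ratio was 0.03. *Mcm3* was at 171.15 and 174.95, *Mcm5* at 170.3 and 171.39, and *Mcm6* at 179.68 and 182.48. *Mcm7* was at 181.82 and 180.27, the one subunit with a ratio below 0, at -0.01. These 4 subunits, whose E2F letters are printed above, lay within 1.1-fold between the libraries. *Mcm4* was the lowest subunit and the one that differed most, at 63.07 and 79.25, a log2 ratio of 0.33. *Mcm2* was at 116.09 and 130.29, a log2 ratio of 0.17. The 2 subunits with the lowest levels in control thus had the highest ratios, and the ratio of the highest to the lowest subunit was 2.88 in control and 2.3 with Eomes. Of the 50-base stretches of the *Mcm7* transcript, 34.2% also occur in another gene's transcript, foremost that of *Gm5487*, so the *Mcm7* level is less certain. *Gm5487* was listed in neither library.

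Genes that activate the helicase were mixed, with 6 of 8 above 0 and a median log2 ratio of 0.09. *Dbf4*, the regulatory subunit of the kinase that fires origins, was at 22.29 and 29.25, a log2 ratio of 0.39 and the first in rank. *Cdc7*, its catalytic partner, was at 9.94 and 10.39, a log2 ratio of 0.06. The share of *Dbf4* in the summed RPKM of the pair was 69.2% in control and 73.8% with Eomes. The 4 GINS subunits, which hold CDC45 to the helicase, had ratios of both signs. *Gins1* was at 20.86 and 24.86, a log2 ratio of 0.25. *Gins3* was at 8.86 and 9.6, a log2 ratio of 0.12. *Gins2* and *Gins4* were lower in Eomes-overexpressing cells and had the higher levels of the complex. *Gins2* was at 67.48 and 60.04, a log2 ratio of -0.17, the lowest of the 47. *Gins4* was at 46.45 and 42.42, a log2 ratio of -0.13. Of the exon bases of *Gins2*, 67.3% overlap *Gse1* on the opposite strand, which was at 9.68 and 11.15, so that the *Gins2* value is uncertain. *Cdc45* was at 51.57 and 53.32 and *Mcm10*, a factor that helps to start unwinding, at 38.18 and 41.23, with log2 ratios of 0.05 and 0.11.

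Polymerase and primase genes differed little, with a median log2 ratio of 0.03 and 5 of 8 above 0. *Pola1*, the catalytic subunit of polymerase alpha, had the lowest level of all 47 genes in both libraries, 5.99 and 7.38, with a log2 ratio of 0.30. *Pola2*, its accessory subunit, was at 65.86 and 68.29, a log2 ratio of 0.05. *Prim1*, the catalytic primase subunit, was at 50.12 and 51.77, and *Prim2*, its partner, at 25.91 and 25.21, with log2 ratios of 0.05 and -0.04. The accessory subunit was thus 11.0 times the catalytic subunit per length in control and 9.25 times in Eomes-overexpressing cells, the widest span within any complex described here. *Pold1* and *Pold2*, the catalytic and an accessory subunit of polymerase delta, were at 61.4 and 60.52 and at 106.91 and 106.28, with log2 ratios of -0.02 and -0.01. *Pole*, the catalytic subunit of polymerase epsilon, was at 21.2 and 21.31, a log2 ratio of 0.01. *Pole2*, its second subunit, was at 15.87 and 18.73, a log2 ratio of 0.24. The catalytic subunits of the 2 polymerases that copy most of the genome therefore lay within 1.1-fold.

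The clamp gene *Pcna*, whose product tethers polymerases to DNA, was the most abundant of the 47 in both libraries, at 401.86 and 442.87, a log2 ratio of 0.14. It stood at percentile 98.1 and 98.3 of expressed genes. Of the 50-base stretches of its transcript, 31.8% also occur elsewhere, foremost in *Pcna-ps2*, which was listed in neither library. The 5 subunits of replication factor C, which opens the clamp and loads it, had ratios of both signs. *Rfc1*, the large subunit, was the lowest, at 17.06 and 19.87, a log2 ratio of 0.22. *Rfc3* was at 64.02 and 70.86 and *Rfc4* at 41.53 and 43.27, with log2 ratios of 0.15 and 0.06. *Rfc2* was at 97.42 and 88.9 and *Rfc5* at 82.29 and 77.36, with log2 ratios of -0.13 and -0.09. As in GINS, the 2 subunits with the highest levels were those with ratios below 0, and the span from the lowest to the highest subunit was 5.71-fold in control and 4.47-fold in Eomes-overexpressing cells. After centring by GC content *Rfc4* was also below 0. Of the 50-base stretches of the transcripts, 19.8% of those of *Rfc2*, foremost in *Lat2*, and 23.0% of those of *Rfc5*, foremost in *Wsb2*, also occur in other genes. *Lat2* and *Wsb2* overlap these genes on the opposite strand and had log2 ratios of 0.21 and -0.21, so that the values of *Rfc2* and *Rfc5* are less certain.

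The 3 genes of replication protein A, which coats single-stranded DNA at the fork, were as deposited the one group of at least 3 genes with no ratio above 0. *Rpa1* was at 121.52 and 117.17, *Rpa2* at 76.81 and 75.94, and *Rpa3* at 66.63 and 62.07. Their log2 ratios were -0.05, -0.02 and -0.10, all small, and that of *Rpa2* was above 0 after TPM scaling, at 0.02, and after centring by GC content, at 0.05. Of the genes of Okazaki fragment maturation, the ligase gene *Lig1* was at 89.91 and 97.15, a log2 ratio of 0.11, and the flap nuclease gene *Fen1* was at 92.71 and 92.14, a log2 ratio of -0.01. Of the exon bases of *Fen1*, 78.8% overlap *Gm10143* on the opposite strand, which was listed in neither library.

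As deposited, the genes of nucleotide supply were all slightly higher in Eomes-overexpressing cells, with a median log2 ratio of 0.12 over 4 genes and a sum of 557.39 in control and 613.9 with Eomes. *Rrm2*, the regulated small subunit of ribonucleotide reductase, was second in level to *Pcna*, at 263.77 and 299.2, a log2 ratio of 0.18. *Rrm1*, the large subunit, was at 131.23 and 145.68, a log2 ratio of 0.15. *Rrm2* was thus at 2.01 and 2.05 times *Rrm1* in the 2 libraries. After centring by GC content *Rrm1* was at 0.00, *Rrm2* at 0.09 and the median of the 4 genes at 0.07. *Tyms*, which makes dTMP, was at 30.26 and 32.35, a log2 ratio of 0.10. *Tk1*, the thymidine kinase of S phase, was at 132.13 and 136.67, a log2 ratio of 0.05.

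Genes that restore chromatin behind the fork were nearly equal. *Chaf1a* and *Chaf1b*, subunits of the histone chaperone CAF-1, were at 59.18 and 57.3 and at 33.34 and 33.81, with log2 ratios of -0.05 and 0.02. *Uhrf1*, which brings the maintenance methyltransferase to new DNA, was at 120.43 and 118.81, a log2 ratio of -0.02. Of the exon bases of *Chaf1a*, 52.5% overlap *Ubxn6* on the opposite strand, which was at 17.51 and 16.1. The activator *E2f1* was at 24.91 and 26.53, a log2 ratio of 0.09. The 11 genes with E2F letters had a median log2 ratio of 0.11 as deposited, with 9 above 0. The 28 genes with a window and no such letters had a median of 0.06 with 20 above 0. These medians were not centred by GC content, and whether the letters go with the ratios was not tested.

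The make-up of the complexes differed little between the conditions. When each subunit was given as a share of its complex's summed RPKM, the largest shift was 4.63 percentage points for CDC7-DBF4, 3.64 for GINS, 2.62 for RFC and 1.48 for MCM2-7. In the other 4 complexes it was smaller, down to 0.477 for ribonucleotide reductase. The subunits kept the same order of levels in 7 of 8 complexes, and in MCM2-7 *Mcm6* and *Mcm7*, which had nearly equal levels, changed places.

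**Figure D3:**
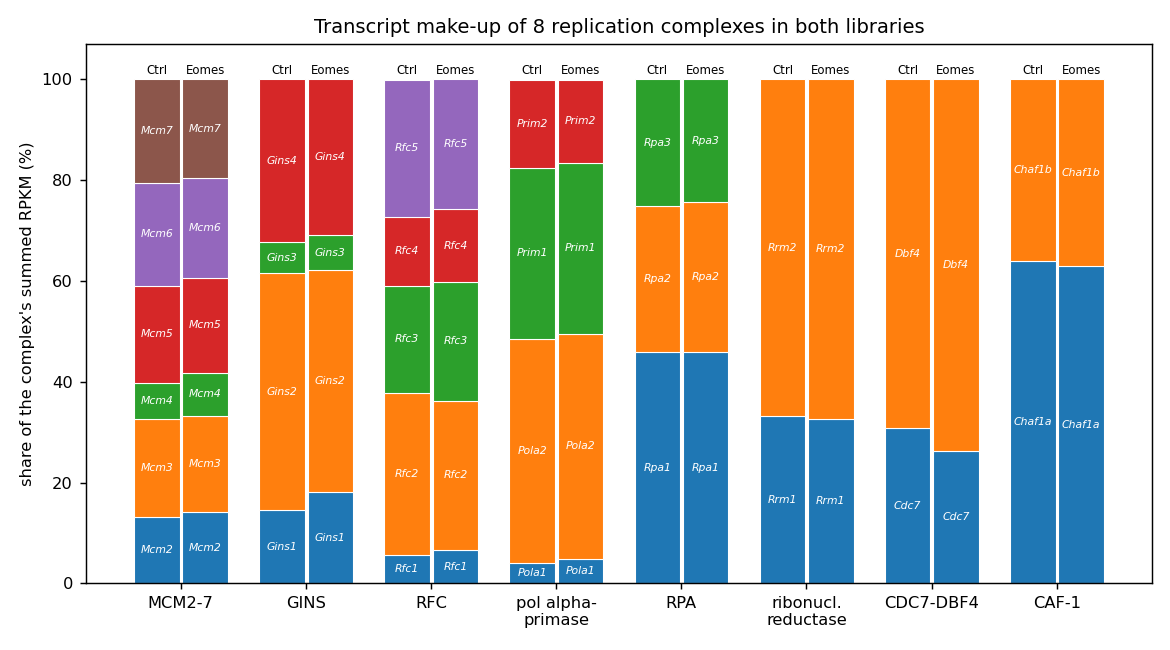
Share (%) of each subunit in its complex's summed RPKM in the control (Ctrl) and Eomes-overexpressing (Eomes) library, 1 library for each bar, for 8 complexes with subunits among the replication genes. The paired bars are nearly alike, and the widest shift is that of *Dbf4*, from 69.2% to 73.8%.

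The spread of log2 ratios among genes of like level gives a scale for these differences. In the band of 5 to 20 in mean RPKM, which held 3555 genes, the central 95% ran from -0.69 to 0.50, and the 6 replication genes in that band lay between 0.06 and 0.30, with a median of 0.19. For 2889 genes from 20 to 100 it ran from -0.46 to 0.40, and the 29 replication genes had a median of 0.05. For 910 genes at 100 or more it ran from -0.45 to 0.31, and the 12 replication genes lay between -0.05 and 0.18, with a median of 0.03. In these 3 bands, 6 of 6, 19 of 29 and 8 of 12 replication genes were above 0, against 53.2%, 47.1% and 40.8% of the genes. No replication gene lay outside the central 95% of its band.

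**Figure D4:**
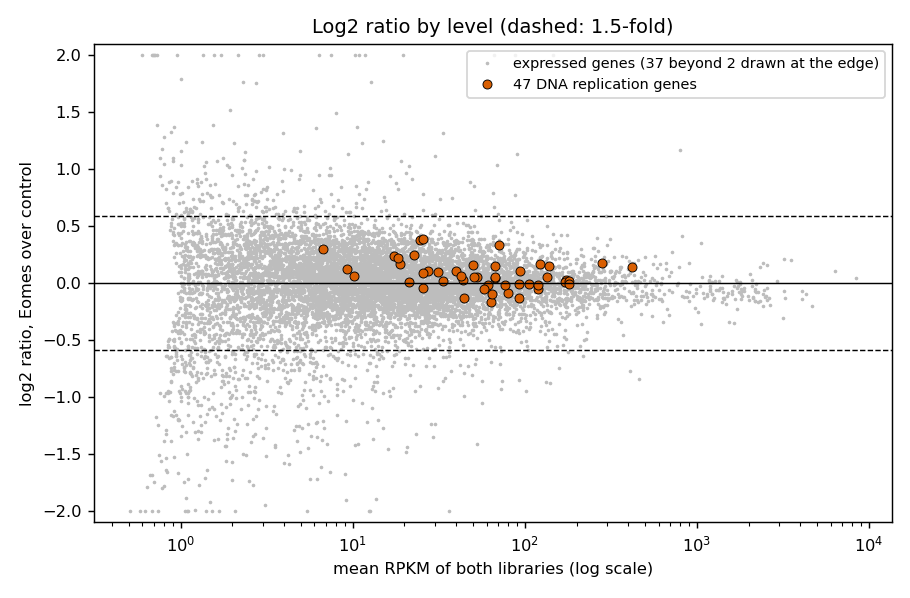
Log2 ratio, Eomes-overexpressing over control, against mean RPKM of both libraries (log axis) for expressed genes (grey; 37 genes beyond 2 are drawn at the edge) and the 47 replication genes (orange). The replication genes lie between -0.17 and 0.39, inside the spread of genes of like level.

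GC content moved with the ratios in the whole of these data, and the replication genes followed it. Over 9835 expressed genes with a GC content, the Spearman correlation of the log2 ratio with the GC content of the longest coding transcript was -0.44, and over the 47 replication genes it was -0.43, both as descriptions over genes that share their libraries. The GC content of the replication genes ran from 40.4% to 60.7%, with a median of 49.3%, against 50.2% for expressed genes. Of the 10 replication genes with the lowest GC content 9 were above 0, with a median log2 ratio of 0.15, and of the 10 with the highest 5 were above 0, with a median of 0.02. The genes more than 1.2-fold higher were on the low side, with 44.4% for *Dbf4*, 44.4% for *Orc2*, 45.5% for *Mcm4* and 41.5% for *Pola1*. When expressed genes were split into 5 equal groups by GC content, 5 of 6 replication genes were above 0 in the group of lowest GC content, up to 44.4%, where 80.0% of expressed genes were, and their median log2 ratio of 0.10 lay below the 0.21 of that group. From 44.4% to 48.4%, 13 of 14 replication genes and 64.1% of expressed genes were above 0, with medians of 0.15 and 0.08. From 48.4% to 52.2% it was 7 of 12 and 44.7%, from 52.2% to 55.9% 6 of 11 and 27.8%, and above that 2 of 4 and 29.4%. The replication genes were thus above 0 more often than the expressed genes in the upper 4 groups and about as often in the lowest.

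**Figure D5:**
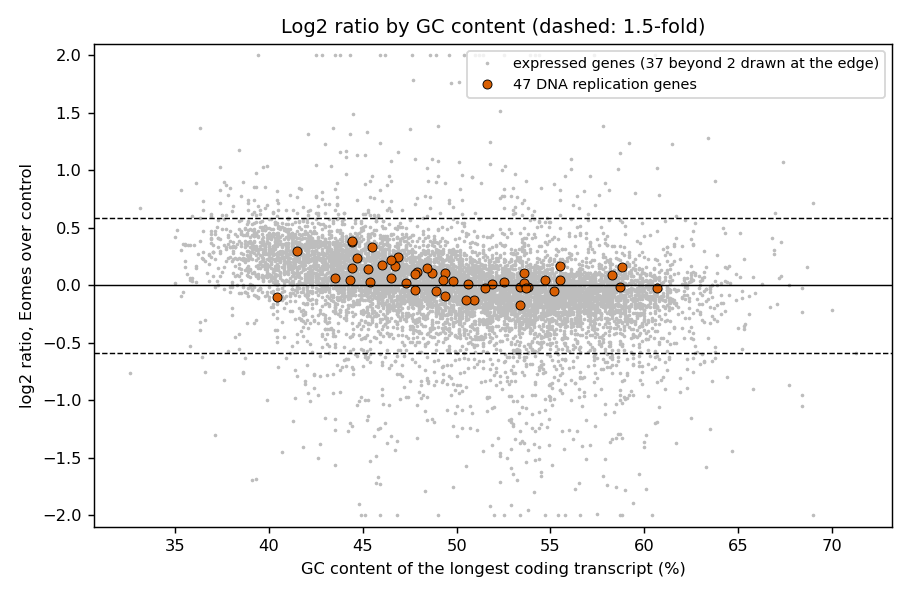
Log2 ratio, Eomes-overexpressing over control, against the GC content (%) of the longest coding transcript for expressed genes (grey; 37 genes beyond 2 are drawn at the edge) and the 47 replication genes (orange). The ratios fall with GC content in both, with a Spearman correlation of -0.44 over 9835 genes and -0.43 over the 47.

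When log2 ratios were centred on the median of genes with like GC content, 34 of the 47 replication genes were above 0, with a median of 0.08, against 4915 of 9835 expressed genes, a near even split that the centring itself gives. The single genes moved more than the count. *Dbf4* was then at 0.29, *Cdt1* at 0.27, *Mcm2* at 0.26, *Mcm4* at 0.24, *Orc2* at 0.23 and *Lig1* at 0.21, while *Pola1* was at 0.08. *Rpa3*, with the lowest GC content of the 47, was at -0.32 and became the lowest. Of the 47 genes 12 changed sign, among them *Orc6* to -0.07, *Mcm7* to 0.08, *Prim1* to -0.10 and *Rfc4* to -0.09. The part of GC content in the differences was not tested.

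Other genes of the same processes gave the same picture of small differences. Of 30 further fork and origin genes, 20 were above 0 and 10 below, with a median log2 ratio of 0.15, and 0 passed the threshold. They ran from -0.34 for *Pold4*, a small subunit of polymerase delta, to 0.56 for *Atad5*, which unloads PCNA and was at 2.41 and 3.56. After GC centring their median was 0.05. Of 24 further genes of nucleotide synthesis, 16 were above 0 and 8 below, with a median of 0.03, from -0.27 for *Guk1* to 0.37 for *Dctd*. Of 8 further genes of replication-coupled chromatin, 8 were above 0, with a median of 0.18, and after GC centring 6 were above 0, with a median of 0.15. *Hells*, a chromatin remodeller, was at 15.65 and 23.93, a log2 ratio of 0.61, past the threshold as deposited and at 0.33 after GC centring. Over these 62 genes, 44 were above 0 and 18 below, with a median of 0.09, and 0.05 after GC centring.

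In the lists of related genes, *Hells* and *Smc4* were more than 1.5-fold higher in Eomes-overexpressing cells and *Cdkn2d* more than 1.5-fold lower. After GC centring no gene of these lists passed 1.5-fold. Among all expressed genes, 5.19% were more than 1.5-fold lower and 2.46% more than 1.5-fold higher. Of 31 genes of the E2F and RB pathway, 21 were above 0 and 10 below, with a median log2 ratio of 0.07, and 19 and 12 after GC centring. *Cdkn2d*, an inhibitor of CDK4 and CDK6, was at 44.43 and 28.6, a log2 ratio of -0.64, past the threshold as deposited and at -0.54 after GC centring. Of 9 genes of the S phase checkpoint, 6 were above 0 and 3 below, with a median of 0.25, and 0.05 after GC centring. They ran from -0.11 for *Rad9a*, a subunit of the checkpoint clamp, to 0.37 for *Chek1*, the checkpoint kinase. Of 40 genes of mitosis, 32 were above 0 and 8 below, with a median of 0.15, and 0.09 after GC centring, and the condensin gene *Smc4* passed the threshold as deposited, at 12.22 and 19.1, a log2 ratio of 0.64, and was at 0.36 after GC centring.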

How the data were processed

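Total RNA of control and of Eomes-overexpressing OT-I cells, 1 library for each, was sequenced at BGI Genomics on an Illumina HiSeq instrument. The number of cultures or wells behind each library is not given in the sources used here. The authors filtered the reads with SOAPnuke, mapped them with HISAT and Bowtie2 to mm10 and computed RPKM with RSEM. The deposited values are named FPKM in the file headers, have 2 decimals and are listed from 0.01 upward, and tool versions and the annotation are not given in the sources used here. No normalization between the libraries is stated.

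Gene symbols that appear as dates, 20 and 19 in the 2 libraries, were dropped. Values not listed were set to 0.01 for log2 ratios. Python 3.11.15, numpy 2.4.6, pandas 2.3.3, scipy 1.17.1 and matplotlib 3.10.9 were used, and the steps were tested on simulated data. GC content came from the longest coding transcript in GENCODE vM21 on mm10 and was centred in 20 bins. The members and gene lists were chosen with earlier results of these data known. All members were described in the text, and of the lists of related genes their ends or every gene past 1.5-fold were named. The most overlapping gene was named beside *Orc2*, *Gins2*, *Rfc2*, *Rfc5*, *Fen1* and *Chaf1a*, and the markers *Cd8a* and *Cd2* after their values were seen. Overlaps of other members were not named beside them. The largest were *Eif4a2* with 12.7% of the exon bases of *Rfc4*, *Gm12743* with 10.8% of *Orc1* and, on the same strand, *Gm49384* with 8.5% of *Pole2*. Low values showed no whole-read steps, so depth stayed unknown. With 1 library for each condition no test was made. Alternatives were pseudocounts of 0.1 and 1, a 2-fold threshold, a minimum RPKM of 5 or none, TPM scaling, and centring on the median, on a trimmed mean or by GC content.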

Additional observations from a re-analysis of the deposited data

How the results depend on the processing

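Under every alternative tried, 0 of the 47 replication genes passed the threshold in either direction. Most alternatives could not have changed this count. A 2-fold threshold is stricter, pseudocounts only shrink ratios, and no member had an RPKM below 5.99. The median and the trimmed mean used for centring were -0.0037 and -0.0001. The remaining alternatives were TPM scaling and GC centring. The number above 0 was 33 as deposited, 39 after TPM scaling and 34 after GC centring, and the median log2 ratio was 0.05, 0.08 and 0.08. TPM scaling shifted all ratios by 0.03 and turned 6 genes from below to above 0. GC centring moved 10 genes by at least 0.1, by -0.22 to 0.11, and changed the sign of 12. Pseudocounts of 0.1 and 1 and centring on the median or a trimmed mean changed the sign of 0 genes. *Hells*, *Smc4* and *Cdkn2d* passed 1.5-fold as deposited and did not after GC centring, and the cause was not tested. No paired analysis was possible because each condition has 1 library, and for the same reason no library could be left out. Depth is unknown, so differences of a few percent have no error and may lie within counting noise.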
